A study of Sus scrofa with 6 samples.

Results

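Vitamin A leaves the liver as retinol bound to RBP4, and RBP4 travels in plasma in a complex with TTR, which also carries thyroid hormone. Inside cells, retinol is stored as esters, oxidised to retinal by retinol dehydrogenases and on to retinoic acid, the ligand of nuclear receptors, or saturated by RETSAT to dihydroretinol. The liver holds most of the body's retinoid, and adipose tissue is a further store that also secretes RBP4. The 4 genes described here are both carriers, RBP4 (ENSSSCG00000010479) and TTR (ENSSSCG00000023686), and a pair of enzymes, RETSAT (ENSSSCG00000008237) and RDH5 (ENSSSCG00000000362), an 11-cis retinol dehydrogenase best known from the pigment epithelium of the eye. They were chosen by symbol, each symbol matched 1 row, and they make up 4 of the 25322 gene IDs counted.

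Their RNA was measured by sequencing in liver, muscle and fat of Korean native and of Berkshire pigs (Sus scrofa), with 1 library for each breed and tissue and 6 libraries in all. The labels give breed and tissue, and they state neither age nor sex, nor the fat depot, nor the muscle, nor whether the 3 tissues of a breed come from the same animal. A p-value therefore measures only the spread among these libraries. Libraries held between 5897407 and 7912093 counts on genes, and 3 counts in a library, taken as the limit that a count of 0 allows, were worth 0.294 to 0.692 TMM-scaled CPM (counts scaled to a common library size with edgeR's TMM factors). Tissue labels matched their markers: ALB (albumin) stood at 212897 and 176485 CPM in Korean native and Berkshire liver and at most 52.6 CPM elsewhere, ACTA1 (skeletal actin) at 71091 and 49067 CPM in muscle and 13.8 and 8.32 CPM in fat, and PLIN1 (the lipid droplet coat protein perilipin 1) at 621 and 1096 CPM in fat. PLIN1 was also present in muscle, at 18.9 CPM in the Korean native and 95.7 CPM in the Berkshire library.

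The carriers were highest in liver and the enzymes in fat. In liver against fat, RBP4 and TTR were higher and RETSAT and RDH5 lower, so that 2 of 4 genes were called in each direction, where 15.2% of the 13810 genes tested were called higher and 13.5% lower (edgeR, adjusted p under 0.05). In liver against muscle the carriers were again called higher and neither enzyme was called, where 18.6% of all genes were called higher and 17.4% lower. In muscle against fat, RBP4, RETSAT and RDH5 were called lower and TTR was not called, where 6.43% of all genes were called lower and 9.95% higher. Scaled by total counts instead, 1158 genes were higher and 5797 lower in liver against fat, in place of 2100 and 1859, and 765 and 5255 in muscle against fat, in place of 1374 and 888. The 4 genes kept their calls under that scaling. All 4 passed the filter on low counts, TTR through its liver libraries and RDH5 through its fat libraries alone, so these 2 could not have been tested without a difference of this kind.

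**Figure D1:**
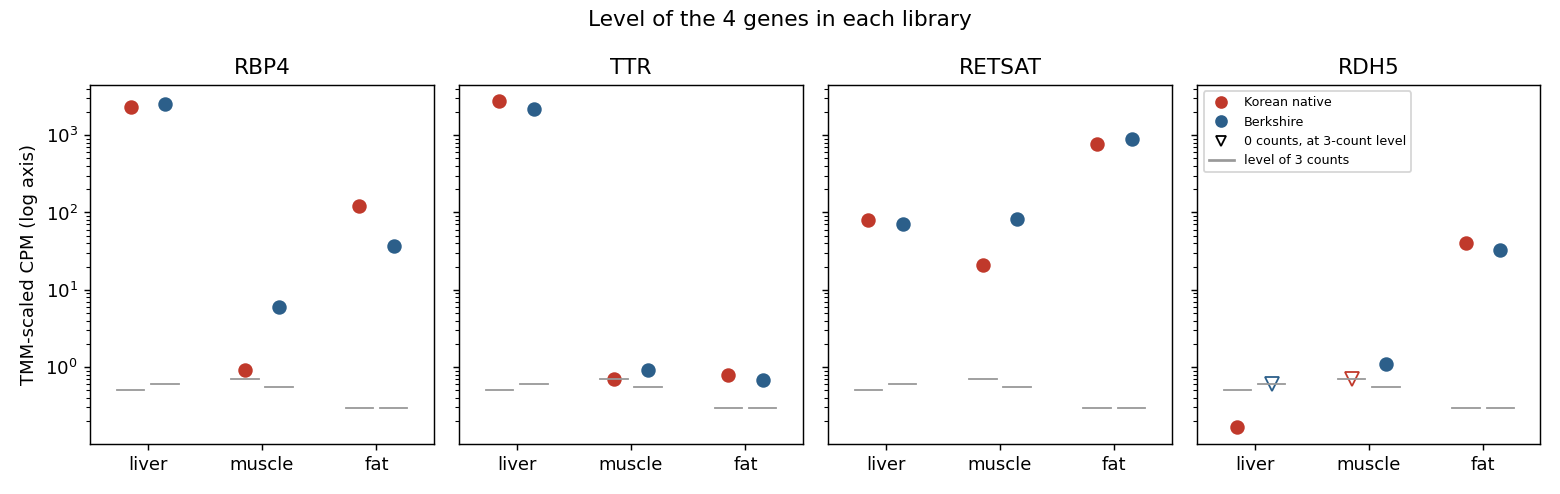
TMM-scaled CPM (log axis) of RBP4, TTR, RETSAT and RDH5 in each of the 6 libraries, with Korean native left of Berkshire in each tissue, grey bars at the level of 3 counts and open triangles for 0 counts. RBP4 and TTR are at 2198 CPM or more in both liver libraries, RETSAT and RDH5 are highest in both fat libraries, and RBP4 has its middle level in fat.

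RBP4, the plasma carrier of retinol, had 2323 CPM in Korean native and 2508 CPM in Berkshire liver, 0.923 and 6.04 CPM in muscle, and 122 and 37.3 CPM in fat. The 3 tissues did not overlap, in the order liver, fat, muscle. Means were 2416 ± 131 CPM in liver, 3.48 ± 3.62 in muscle and 79.7 ± 60.0 in fat (SD, n = 2 each). The log2 difference was 4.93 ± 0.90 (SE) for liver against fat (edgeR adjusted p 0.0072) and 9.39 ± 1.11 for liver against muscle (adjusted p 8.6e-04). For muscle against fat it was -4.46 ± 0.96 (adjusted p 0.024). That last call ended without Korean native fat (-3.11, adjusted p 0.052) or without Korean native muscle (-3.15, adjusted p 0.067), and the value was -5.81 without Berkshire fat and -6.74 without Berkshire muscle. The distance to liver also turned on single libraries: liver against fat was 6.58 without Korean native fat and 3.87 without Berkshire fat, and liver against muscle was 8.30 without Korean native and 11.79 without Berkshire muscle, all still called.

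TTR, the carrier to which RBP4 binds in plasma, showed no such middle level. It had 2753 and 2198 CPM in Korean native and Berkshire liver, 0.692 and 0.915 CPM in muscle and 0.789 and 0.686 CPM in fat. The muscle and fat values rest on 3, 5, 8 and 7 counts and overlap. Liver differed by 11.67 ± 0.57 on the log2 scale from fat (edgeR adjusted p 8.8e-05) and by 11.53 ± 0.58 from muscle (adjusted p 7.5e-05). TTR passed the filter on low counts through its liver libraries, so it could not have been tested without such a difference. Muscle against fat gave 0.15 ± 0.57 (adjusted p 0.88), and on summed counts a ratio of 1.11 with a 95% counting interval of 0.407 to 2.78, so a difference within that interval was not detectable at this depth.

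**Figure D2:**
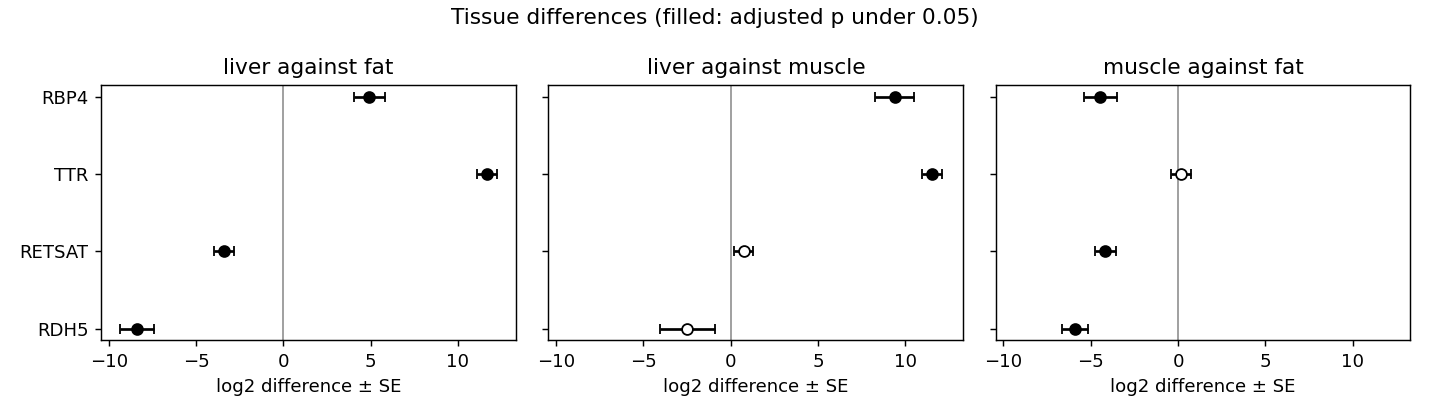
Log2 difference ± SE (edgeR's additive model of tissue and breed, 6 libraries) of each gene for liver against fat, liver against muscle and muscle against fat, with filled points for adjusted p under 0.05. RBP4 and TTR lie right of 0 in both liver panels, RETSAT and RDH5 lie left of 0 against fat, and TTR sits at 0.15 in muscle against fat.

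Counts of the carriers were set against those of hepatocyte markers in the same library, which needs no scaling between libraries. All 10 listed markers (ALB, TF, HRG, PLG, AMBP, GC, SERPINC1, CPS1, TAT and F2) had counts above 0 in every library, and their summed level was 261692 and 226948 CPM in Korean native and Berkshire liver, 70.4 and 69.2 CPM in muscle and 41.7 and 29.6 CPM in fat. Per 1000 such counts, TTR had 10.5 and 9.68 counts in Korean native and Berkshire liver, 9.84 and 13.2 counts in the muscle libraries and 18.9 and 23.2 counts in the fat libraries. The counting intervals of the muscle libraries (2.02 to 29.0 and 4.27 to 31.1) and of the fat libraries (8.11 to 37.6 and 9.24 to 48.3) include the ratios of both liver libraries. Summed over both breeds, muscle had 11.7 TTR counts per 1000 (5.04 to 23.2), and fat had 20.7 (11.5 to 34.4), above both liver ratios. Without ALB, which holds most of the marker counts, the summed ratio was 44.9 (19.1 to 90.5) in muscle and 74.6 (41.0 to 126) in fat, and both intervals include the 56.4 and 43.6 of Korean native and Berkshire liver. Sums over breeds and ratios without 1 marker were added after the data were seen.

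RBP4 behaved differently on this measure. It had 8.88 and 11.1 counts per 1000 hepatocyte marker counts in Korean native and Berkshire liver, 13.1 (interval 3.55 to 33.9) and 87.3 (lower bound 59.2) in muscle, and 2929 (2621 to 3279) and 1262 (1082 to 1472) in fat. The ratios in fat of both breeds and in Berkshire muscle lay above both liver ratios, beyond counting error, while the interval of Korean native muscle, with 4 counts, included them.

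**Figure D3:**
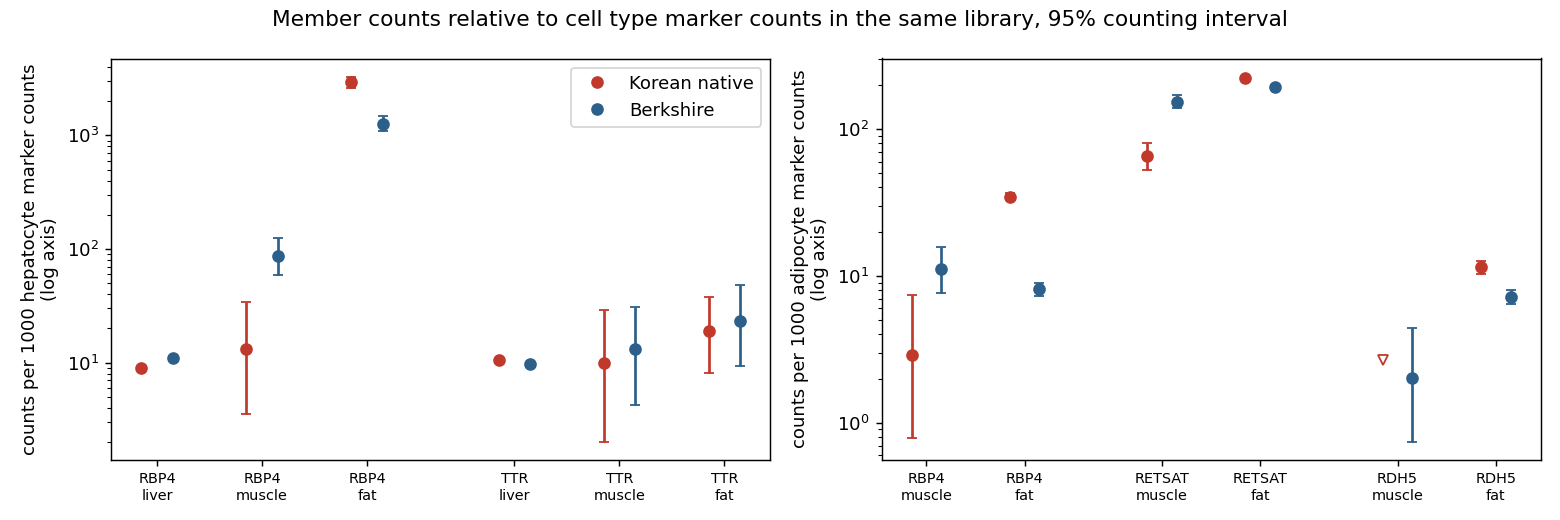
Left, counts of RBP4 and TTR per 1000 hepatocyte marker counts, and right, counts of RBP4, RETSAT and RDH5 per 1000 adipocyte marker counts in muscle and fat, on log axes with 95% counting intervals and Korean native left of Berkshire. TTR stays between 9.68 and 23.2 in all tissues whereas RBP4 reaches 2929 and 1262 in fat, the open triangle is the upper limit for the library with 0 RDH5 counts, and without PLIN4 among the markers RETSAT is at 364 and 322 in muscle.

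RETSAT, which saturates a double bond of retinol and is induced during fat cell differentiation in mouse, was well counted in all 3 tissues. It had 80.4 and 70.6 CPM in Korean native and Berkshire liver, 21.0 and 83.1 CPM in muscle and 780.0 and 887 CPM in fat. Fat stood above every library of the other tissues, and the muscle values lay on both sides of the liver values. Means were 75.5 ± 6.89 CPM in liver, 52.0 ± 43.9 in muscle and 834 ± 75.6 in fat (SD, n = 2 each). The log2 difference was -3.43 ± 0.58 for liver against fat (edgeR adjusted p 0.0052) and -4.17 ± 0.61 for muscle against fat (adjusted p 0.0059). Both were called without any single library, with -4.15 for liver against fat without Korean native liver, and -3.32 and -5.41 for muscle against fat without Korean native and without Berkshire muscle. Liver against muscle gave 0.74 ± 0.56 (adjusted p 0.34) and would have been called without Berkshire muscle (1.84, adjusted p 0.023).

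RDH5, the dehydrogenase, was near the limit of detection outside fat. It had 1 count in Korean native and 0 in Berkshire liver, 0 and 6 counts in muscle, and 408 and 336 counts in fat, which are 40.2 and 32.9 CPM. The count of 0 allows up to 0.692 CPM in Korean native muscle. Mean levels were 0.0829 ± 0.117 CPM in liver, 0.549 ± 0.777 in muscle and 36.6 ± 5.18 in fat (SD, n = 2 each), and fat did not overlap with either tissue. On counts summed over both breeds, liver stood at 0.00248 of fat (95% counting interval 6.27e-05 to 0.0139) and muscle at 0.0168 of fat (0.00613 to 0.0366). Both differences were called by edgeR (adjusted p 0.0011 and 0.0036), and their fitted log2 values, -8.40 ± 0.97 and -5.90 ± 0.77, rest on 1 and 6 counts. RDH5 passed the filter on low counts through its fat libraries alone, so it could not have been tested without such a difference. Both differences stayed called without any single library. Liver against fat was then -11.13 without Korean native liver, -9.72 without Berkshire fat, -7.55 without Berkshire liver and -7.40 without Korean native fat. Muscle against fat was -11.25 without Berkshire muscle, -7.49 without Berkshire fat, -5.17 without Korean native fat and -4.85 without Korean native muscle. Liver against muscle, with 1 against 6 counts, gave a ratio of 0.148 (0.00322 to 1.22) and was not called (edgeR adjusted p 0.26). Its direction turned on single libraries, with a log2 difference of 2.73 without Berkshire muscle and -5.20 without Korean native liver. Fewer cells of a type and less RNA per cell cannot be told apart in these bulk samples, for RDH5 or for the other genes.

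Adipocyte markers, like both enzymes, were highest in fat, and unlike RETSAT they were higher in both muscle libraries than in both liver libraries. Of 10 listed markers 5 had a row (PLIN1, PLIN4, LIPE, CIDEC and PPARG), none at 0 counts in any library, and their summed level was 31.3 and 27.6 CPM in Korean native and Berkshire liver, 321 and 541 CPM in muscle and 3522 and 4581 CPM in fat. Per 1000 of these counts RETSAT had 65.4 and 154 counts in Korean native and Berkshire muscle and 221 and 194 counts in fat. These muscle ratios turn on PLIN4, which held 1141 of 1391 and 1542 of 2953 marker counts in Korean native and Berkshire muscle: without it RETSAT had 364 and 322 per 1000 in muscle and 467 and 281 in fat, and the tissues overlap. In Korean native and Berkshire liver, on 189 and 138 marker counts, RETSAT had 2566 and 2558 per 1000, more than in fat. RDH5 had 0 (0 to 2.66) per 1000 in Korean native muscle and 2.03 (0.745 to 4.43) in Berkshire muscle, and 11.4 and 7.18 in Korean native and Berkshire fat. Without PLIN4 it had 0 (0 to 14.9) and 4.25 (1.56 to 9.28) in muscle and 24.1 and 10.4 in fat. The part of adipocytes in the muscle and liver levels was not tested.

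The breed comparison asked whether the Korean native libraries differed from the Berkshire libraries over the 3 tissues. None of the 4 genes passed, where 0.029% of all genes were called higher and 0.0797% lower in Korean native (edgeR, 15 genes or 0.109% in all), and none had an unadjusted p under 0.05. DESeq2 called none either. The log2 differences were 0.02 ± 0.78 for RBP4 (adjusted p 1.00), 0.17 ± 0.37 for TTR (0.93), -0.62 ± 0.45 for RETSAT (0.79) and -0.09 ± 0.65 for RDH5 (0.98). Without 1 library they ranged from -0.996 to 0.79 for RBP4, from -0.04 to 0.29 for TTR, from -1.06 to 0.00 for RETSAT and from -2.04 to 0.37 for RDH5, so the sign is not settled. These values do not show that the breeds are alike.

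Within tissues the breed ratios of RBP4 went in different directions. Korean native fat had 3.27 times the RBP4 level of Berkshire fat (95% counting interval 2.92 to 3.68), Korean native liver 0.926 times that of Berkshire liver (0.904 to 0.949), and Korean native muscle, on 4 against 33 counts, 0.153 times that of Berkshire muscle (0.0393 to 0.429). There is 1 library on each side, so no test was made, and the intervals cover counting error only. Of the genes that reached 10 CPM in either fat library, 4.15% were at least 2-fold higher and 3.42% at least 2-fold lower in the Korean native one. RBP4 was among the higher, and RETSAT and RDH5 passed the same minimum without such a ratio. In the same fat libraries 4 of 5 adipocyte markers were lower in the Korean native library and their sum was 3522 against 4581 CPM, so the RBP4 ratio per adipocyte marker count was larger still, at 34.7 per 1000 (32.7 to 36.7) in Korean native and 8.15 (7.34 to 9.01) in Berkshire fat, and without PLIN4 at 73.1 (69.0 to 77.5) and 11.8 (10.7 to 13.1). All 4 fibroblast and all 4 macrophage markers with a row were higher in Korean native fat, with sums of 15800 against 10791 CPM and 205 against 103 CPM. The macrophage marker MARCO was level, at 0.394 against 0.392 CPM on 4 counts each. All 3 erythroid and 7 of 8 muscle fibre markers were also higher. Of the hepatic stellate cell markers RELN, NGFR, DES and PDGFRB were higher, HHIP was lower and LRAT had 0 counts in both fat libraries. All 3 endothelial markers were lower, and hepatocyte markers went 5 each way. The part of these cell types in the RBP4 ratio was not tested. In muscle, where the RBP4 ratio was below 1, all 5 adipocyte, all 4 fibroblast and all 4 macrophage markers were lower in the Korean native library.

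**Figure D4:**
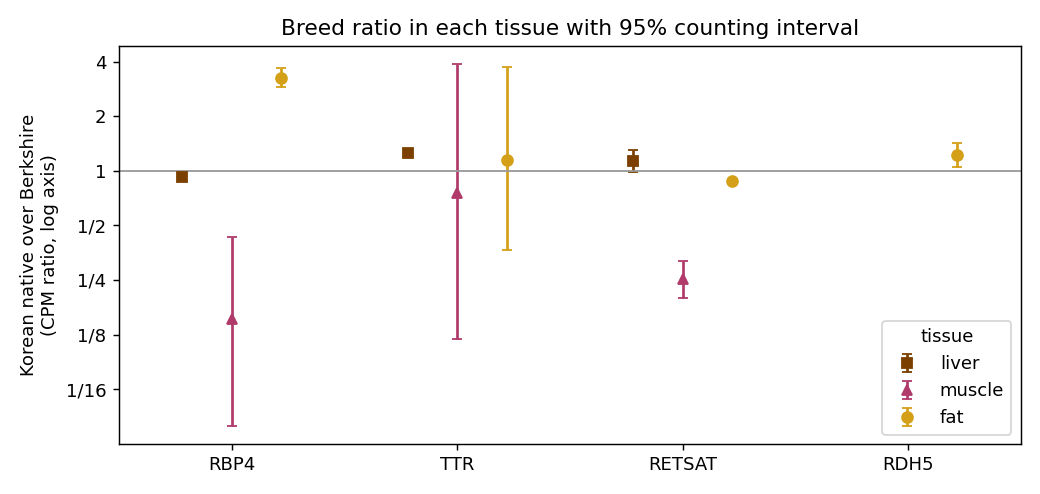
Ratio of CPM in the Korean native over the Berkshire library of each tissue (log axis) for each gene, with 95% intervals that cover counting error only. RBP4 is above 1 in fat and below 1 in liver and muscle, RETSAT departs from 1 mainly in muscle, and RDH5 in liver and muscle is not drawn because 1 library of each pair had 0 counts.

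RETSAT differed between breeds mainly in muscle, where the Korean native library had 0.253 times the Berkshire level (0.199 to 0.317). Among all genes that met the same minimum in muscle, 9.34% were at least 2-fold lower and 11% at least 2-fold higher in the Korean native library. All 5 adipocyte markers were lower there too, with PLIN1 at 18.9 against 95.7 CPM, LIPE at 19.6 against 80.0 CPM and a median log2 ratio of -2.01, and the fibroblast and macrophage markers summed to 4022 against 17149 CPM and 28.6 against 75.4 CPM. Of 8 muscle fibre markers 7 were higher. Per 1000 adipocyte marker counts RETSAT was at 65.4 (52.3 to 80.9) in Korean native and 154 (139 to 170) in Berkshire muscle, but PLIN4 (263 against 282 CPM) carries that difference: without it the values were 364 (283 to 464) and 322 (289 to 358), whose intervals overlap. The part of these cells in the RETSAT ratio was not tested. In fat RETSAT was 0.879 times as high (0.853 to 0.906) and in liver 1.14 times (0.990 to 1.31), an interval that includes 1.

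TTR in liver and RDH5 in fat, where they were well counted, stayed within 2-fold between breeds. Korean native liver had 1.25 times the TTR level of Berkshire liver (1.22 to 1.28), so the liver ratio of TTR and that of RBP4 stood on opposite sides of 1, both by less than 2-fold. A ratio of 2-fold or more was seen upward for 5.76% and downward for 5.53% of liver genes. The 3 erythroid markers with a row were higher in Korean native liver, with a sum of 2130 against 247 CPM, and 6 of 10 hepatocyte markers were higher. Their part in these ratios was not tested. Korean native fat had 1.22 times the RDH5 level of Berkshire fat (1.06 to 1.42). In muscle RDH5 had 0 against 6 counts, and the upper bound of the ratio was 1.07, so a difference was not detectable at this depth. For TTR the ratios in muscle (0.756, 0.117 to 3.89) and fat (1.15, 0.365 to 3.73) say little.

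Across the 6 libraries the carriers were less alike than the enzymes. Centred on their own means, the log2 CPM profiles of RBP4 and TTR differed by a root mean square of 2.71, and those of RETSAT and RDH5 by 1.32. Pearson's r over the 6 libraries was 0.86 and 0.95. These are descriptions, and the tissues shared by all profiles set much of them. By the same measure over 6311 other genes with a symbol and at least 10 CPM, TTR was closest to C8A (a complement component, difference 0.11), ADH4 (0.20) and APOB (0.23), none above 0.366 CPM in any muscle or fat library.

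The genes nearest to RBP4 were farther off. Its nearest profiles were those of PON1 (paraoxonase, 0.88), F5 (coagulation factor V, 1.20) and APOE (apolipoprotein E, 1.24), each with a middle level in fat, as with APOE at 5863 and 8591 CPM in Korean native and Berkshire liver, 21.7 and 74.5 CPM in the muscle and 896 and 1049 CPM in the fat libraries. RETSAT was nearest to SFRP1 (0.61) and SFRP5 (0.65), both secreted Wnt inhibitors, and to PRR5L (0.64). RDH5 was nearest to LGALS12 (a galectin of fat cells, 0.40), SDR16C5 (0.69) and ACKR4 (0.70). SDR16C5, a retinol dehydrogenase of epidermis, had 0.166 and 0.200 CPM in Korean native and Berkshire liver, 0.923 and 3.66 CPM in the muscle and 134 and 94.3 CPM in the fat libraries. Ranked by Pearson's r instead, none of the nearest 3 remained for RBP4 or RETSAT, and 1 of 3 did for TTR (C8A) and RDH5 (LGALS12).

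The rest of the retinoid pathway was read from a list of 58 symbols, of which 39 had a row and 27 were tested. The list was chosen with earlier results of these data known, so the shares called are descriptions. ADH4, LRAT and ALDH8A1 had at most 1 count in any muscle or fat library and passed the filter through liver alone. They could not have been tested without a difference of this kind. In liver against fat 9 of the 27 were called higher and 9 lower, a share of 66.7%, where 28.7% of all genes were called in either direction. In liver against muscle 11 were higher and 7 lower (66.7%, against 35.9% of all genes). In muscle against fat 1 was higher and 9 lower (37.0%, against 16.4%). Fewer were called when Korean native fat, Korean native muscle or Berkshire fat was left out, both on the list and over all genes. The median log2 difference of the list was -0.11, 1.34 and -1.27 in these comparisons and that of all genes 0.06, -0.01 and -0.05. Scaled by total counts, 7 were higher and 12 lower in liver against fat, where 1158 of all 13810 genes were higher and 5797 lower. In muscle against fat 0 were then higher and 18 lower, where 765 of all genes were higher and 5255 lower.

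**Figure D5:**
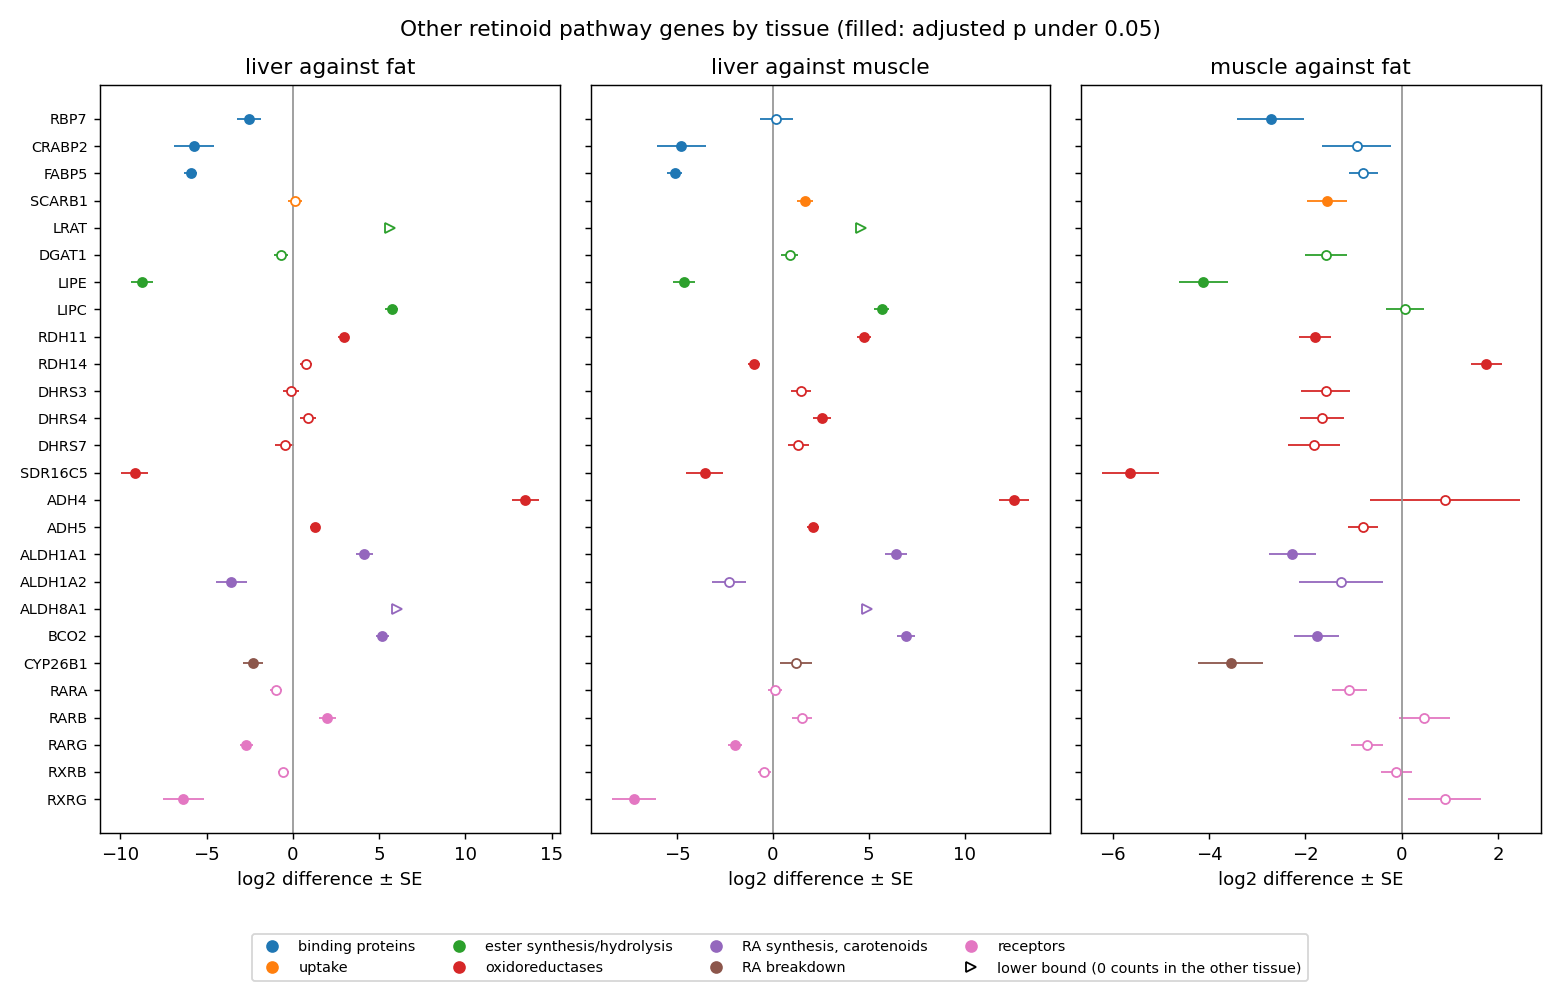
Log2 difference ± SE of the tested pathway genes, 1 left out, for each pair of tissues, coloured by role, filled where the edgeR adjusted p is under 0.05, with triangles for lower bounds against a tissue with 0 counts. Genes of retinoic acid synthesis and carotenoid cleavage other than ALDH1A2 lie to the right in both liver panels, and LIPE and SDR16C5 lie to the left in the same panels.

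Of the 8 tested oxidoreductases, which interconvert retinol and retinal, 3 were higher, 1 was lower and 4 were not called in liver against fat. ADH4, an alcohol dehydrogenase that accepts retinol, had 774 ± 285 CPM in liver (SD, n = 2 for each tissue here and below) and 1 count in all in muscle and 1 in fat. RDH11, a microsomal retinal reductase, had 317 ± 58.2 CPM in liver, 8.53 and 15.4 CPM in Korean native and Berkshire muscle and 40.8 ± 6.13 CPM in fat, 2.95 ± 0.33 higher on the log2 scale in liver against fat (edgeR adjusted p 9.4e-04). DHRS3, which reduces retinal to retinol, had 120 ± 1.88, 53.2 ± 46.5 and 140 ± 50.0 CPM and was called in no comparison. The 1 called lower was SDR16C5 (-9.18 ± 0.78, edgeR adjusted p 2.9e-04). These enzymes belong to families of related genes, so reads could be split or lost between copies.

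ALDH1A1, a retinal dehydrogenase, had 981 ± 80.9 CPM in liver, 12.1 ± 7.99 in muscle and 55.9 ± 0.824 in fat. ALDH1A2, a related dehydrogenase, had 4.18 ± 1.45, 19.9 ± 11.8 and 52.0 ± 50.1 CPM in the same order. Liver against fat was 4.14 ± 0.51 for ALDH1A1 (edgeR adjusted p 0.0014) and -3.56 ± 0.92 for ALDH1A2 (adjusted p 0.027). BCO2, which cleaves carotenoids off centre, stood at 135 ± 6.30 CPM in liver, 1.08 ± 0.546 in muscle and 3.78 ± 1.16 in fat. CYP26B1, which breaks retinoic acid down, was low throughout, at 0.732 ± 0.0972, 0.298 ± 0.0958 and 3.73 ± 0.260 CPM. It was called lower in liver and in muscle than in fat (edgeR adjusted p 0.022 and 0.016). It had at most 4 counts in any liver or muscle library, against 36 and 40 in Korean native and Berkshire fat. CYP26B1 passed the filter on low counts through fat alone, so it could not have been tested without such a difference.

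LRAT, the retinol esterifying enzyme of hepatic stellate cells, and STRA6 were chosen for mention after their values were seen. LRAT had 14.8 ± 3.93 CPM in liver and 0 counts in all muscle and fat libraries, at least 23.8-fold higher in liver than in muscle and at least 50.2-fold higher than in fat against 3 counts per library. LIPE, hormone-sensitive lipase, which hydrolyses retinyl esters in fat cells, had 1.63 ± 0.0400 CPM in liver, 49.8 ± 42.7 in muscle and 768 ± 377 in fat. LIPC (hepatic lipase) had 133 ± 28.7, 2.55 ± 0.0178 and 2.51 ± 0.915 CPM. DGAT1, an acyltransferase that can esterify retinol, was called in no comparison. SCARB1, a scavenger receptor that takes up carotenoids, had 77.5 ± 16.8, 25.5 ± 8.69 and 76.3 ± 36.8 CPM, and was called lower in muscle against fat (edgeR adjusted p 0.046) and higher in liver against muscle (adjusted p 0.020). STRA6, the cell surface receptor for RBP4, was too low to be tested: it had 0 counts in both liver libraries, 0 and 6 in Korean native and Berkshire muscle and 6 and 1 in fat.

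Of the binding proteins inside cells, FABP5, which delivers retinoic acid to other nuclear receptors, had 5.27 ± 1.60 CPM in liver, 188 ± 75.7 in muscle and 323 ± 114 in fat. CRABP2, which carries it to its own receptors, had 0.100 ± 0.141, 2.65 ± 1.15 and 6.60 ± 7.12 CPM in the same order. Both were called lower in liver against fat (edgeR adjusted p 1.1e-04 and 0.011). For CRABP2 this rests on 0 and 1 counts in Korean native and Berkshire liver, and on 118 and 16 counts in fat. Among receptors, RARG had 4.84 ± 0.515, 19.5 ± 6.35 and 32.1 ± 9.19 CPM and was lower in liver against fat (-2.69 ± 0.37, adjusted p 0.0023), whereas RARA and RXRB were called in no comparison. In the breed comparison 0 of the 27 genes were called by edgeR or by DESeq2, where edgeR called 0.109% of all genes. By edgeR 4 of the 27 had an unadjusted p under 0.05. The share of all genes under that limit was not taken, so this count is not read as a result about the list.

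In the RefSeq annotation of Sscrofa11.1, a later build than that of the counts, RBP4 overlaps PDE6C, a cone phosphodiesterase with at most 1.08 CPM in any library, and RETSAT overlaps ELMOD3. ELMOD3 had 37.3 and 23.4 CPM in Korean native and Berkshire liver, 102 and 58.0 CPM in the muscle and 209 and 148 CPM in the fat libraries, higher in Korean native muscle where RETSAT was lower. These neighbours were chosen after the values were seen.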

How the data were processed

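RNA was sequenced from 6 pig tissue libraries made with a TruSeq kit from total RNA, per the labels' protocols. The submitters' processing notes name TopHat, HTSeq 0.5.3p3 and the build Sscrofa10.2. The files hold the authors' raw counts per Ensembl gene ID. No source used here gives the strand setting or the annotation release, so overlapping and antisense genes cannot be told apart. The 5 closing entries that name no gene were left out: reads outside genes made up 45.9% to 52.5% of all entries and reads without a unique alignment 14.1% to 20.8%. The supplied gene name table gave a symbol to 11804 of 25322 IDs (46.6%).

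The fit to these counts used edgeR (version 4.0.16, under R 4.3.3; TMM factors, filterByExpr, an additive model of tissue and breed, quasi-likelihood test, two-sided, Benjamini-Hochberg adjustment over 13810 genes). The model has 2 residual degrees of freedom. Each SE is the log2 value's size over the square root of F. Breed ratios within a tissue have no replicate. Their exact binomial 95% intervals, like every floor of 3 counts, cover counting error only. Ratios to marker counts compare counts within 1 library. Nearest profiles are the 3 genes of smallest root mean square difference in centred log2 CPM (prior count 2), with a mean of at least 10 CPM. Pathway genes named are the 3 of highest mean CPM in each role, of which 1 is not reported here, and others are nearest profiles or were chosen after their values were seen (LRAT, STRA6 and the neighbours). The procedure was tested on simulated data. Alternatives were other scalings, DESeq2 1.42.0, no filter, fewer terms or libraries, and leaving out each library. The 4 genes and the lists were chosen with earlier results of these data known. Levels of different genes were not compared, since no transcript lengths were used here.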

Additional observations from a re-analysis of the deposited data

Results flagged for a closer look

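RBP4 was the 1 gene of the 4 whose breed ratio lay on opposite sides of 1 in different tissues with counting intervals that exclude 1. The Korean native over Berkshire ratio was 3.27 in fat, 0.926 in liver and 0.153 in muscle. With 1 library for each breed and tissue the difference between tissues was not tested, and the muscle ratio rests on 4 against 33 counts.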

How the results depend on the processing

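Called values of the 4 genes kept their direction under all alternatives run, and 2 tissue calls changed side, both when a library was left out. RBP4 in muscle against fat (range without 1 library -6.74 to -3.11) lost its call without Korean native fat or Korean native muscle, and RETSAT in liver against muscle (-0.14 to 1.84) gained one without Berkshire muscle. Values that were not called could change sign, as RDH5 in liver against muscle did (-5.20 to 2.73). The spread of the model then rests on 1 residual degree of freedom, and the lone library of a tissue is assumed to vary like the others. Pathway genes called in muscle against fat numbered 18 with total counts, against 10, and 3 to 14 without 1 library. Total counts moved the median of all genes to -0.94 for liver against fat and -0.98 for muscle against fat, and the 4 genes moved with it (RBP4 3.90, TTR 10.67, RETSAT -4.43 and RDH5 -9.33 in liver against fat). They also moved the log2 breed ratio beyond its counting interval to -0.16 for RBP4 and 0.28 for TTR in liver and to -0.27 for RETSAT in fat, from -0.11, 0.33 and -0.19. The cause was not tested. Over all genes, the breed comparison called 4 higher and 11 lower in Korean native, against 36 and 57 by DESeq2, 35 and 52 without the filter, 0 and 0 without the tissue term, and 6 to 29 higher and 10 to 54 lower without 1 library. Muscle against fat called 1374 higher and 888 lower, against 765 and 5255 with total counts, 593 and 273 without Korean native fat, 752 and 258 without Korean native muscle and 852 and 623 without Berkshire fat. Liver against fat called 2100 and 1859, against 1158 and 5797 with total counts and 1383 and 1069 without Korean native fat. The labels number no animals, so no replicate block was fitted. The breed term sets tissues against each other within a breed, and without it no call of the 4 genes changed. Depth limits TTR outside liver and RDH5 outside fat, where no library held more than 8 counts.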
